A study of Mus musculus with 6 samples.

Results

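The genes described here are the 8 markers of the two-cell-like state Zscan4c, Zscan4d, Zscan4f, Zfp352, Tcstv1, Tcstv3, Usp17le and Tdpoz4, together with Dppa2 and Dppa4. They were found by their gene symbols in the count tables, which gave 10 of the 39017 genes counted, and all 10 had counts in every library. PolyA RNA-Seq was read in 6 libraries of mouse embryonic stem cells (mESCs), 2 in each of 3 groups. The Pol II degron mESCs are a homozygous clonal line made in V6.5 cells, in which the RPB1 subunit of Pol II carries an mAID-GFP tag at its C terminus and the plant F-box protein Tir1 is expressed from the Rosa26 locus. The clone that degraded the tagged protein most efficiently had been chosen. The untreated group received 1 μg/ml doxycycline for 12 h, which induces Tir1, and no auxin. The auxin group received the same doxycycline and then 500 μM indole-3-acetic acid (auxin) for 6 h, which directs the tagged RPB1 to degradation. The wild-type group is labelled V6.5, a line from a cross of C57BL/6 and 129/sv mice, with no change at the Pol II gene. Its records do not say whether it received doxycycline or auxin, and its extraction note names retinas. All cells had been grown on irradiated fibroblast feeders in serum and LIF. The auxin comparison asks how mature mRNAs stand after 6 h of Pol II loss, and the wild-type comparison asks how the tagged line differs from its parent.

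In a culture of mESCs, a small and changing fraction of cells passes through a state in which transcripts of the cleavage-stage embryo are made, among them those of the Zscan4 cluster and of MERVL retroviral elements. The transcription factor Dux switches this program on, and Dppa2 and Dppa4, a pair of SAP-domain proteins that bind chromatin together, act upstream of Dux and also hold developmental promoters open to later activation. Dppa2 and Dppa4 are expressed by most mESCs, whereas the Zscan4 genes are expressed by few of them at any time. In bulk RNA, fewer cells in a state and less RNA per cell cannot be told apart.

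Several of the genes stand in clusters of near-identical copies, so that reads can fit more than 1 copy. In the GENCODE vM21 annotation of mm10, Zscan4c (ENSMUSG00000054272) lies on chromosome 7 from 11005745 to 11010547, Zscan4d (ENSMUSG00000090714) from 11161374 to 11166159 on the minus strand, and Zscan4f (ENSMUSG00000070828) from 11397915 to 11402318. The share of 100-base stretches of a gene's transcripts that also occurs in transcripts of other genes was 72.8% for Zscan4c, 80.6% for Zscan4f and 29.6% for Zscan4d. The coding sequences of Zscan4c and Zscan4f, each of 1518 bases, differ at 6 bases, and Zscan4d differs from each of them at 35 bases. The stretch of 60 coding bases that holds the most of these differences is shown from base 1032 to base 1091 of the coding sequence, because reads over it separate the copies. Capitals mark the 6 positions at which the copies are not all alike, out of 38 such positions in the whole coding sequence.
Zscan4c: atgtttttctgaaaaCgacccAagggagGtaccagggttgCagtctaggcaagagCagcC
Zscan4d: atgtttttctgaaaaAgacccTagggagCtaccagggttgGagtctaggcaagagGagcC
Zscan4f: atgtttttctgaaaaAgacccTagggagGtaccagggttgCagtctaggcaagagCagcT
Each copy can be told from the others by its letters at the marked positions, but outside this window Zscan4c and Zscan4f share long runs of identical sequence. A count given to Zscan4c may therefore have come from Zscan4f, and the reverse, and the sum over the copies is the firmer value.

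The other genes are more distinct in sequence. Zfp352 (ENSMUSG00000070902), which encodes a zinc finger protein of the early embryo, lies on chromosome 4 from 90218820 to 90225702 and shared 0.64% of its stretches. Tcstv1 (ENSMUSG00000096284) and Tcstv3 (ENSMUSG00000095821), 2 genes of a family transcribed at the two-cell stage, lie on chromosome 13 from 119893388 to 119894785 and from 120316878 to 120318178. Their coding sequences were 94.7% identical, and 3.58% and 7.79% of their stretches were shared. Usp17le (ENSMUSG00000043073), a member of the Usp17-like family of deubiquitinating enzymes, lies on chromosome 7 from 104768049 to 104777470 and shared 8.22%. Tdpoz4 (ENSMUSG00000060256), a single-exon gene for a protein with TRAF-like and POZ domains, lies on chromosome 3 from 93796398 to 93797510 and shared 11.6%, most of it with Gm4858. Dppa4 (ENSMUSG00000058550) and Dppa2 (ENSMUSG00000072419) are neighbours on the plus strand of chromosome 16, from 48283733 to 48294237 and from 48303908 to 48319723, with 9670 bases between them. The pair share 63.6% of their aligned coding bases. Dppa2 shared 23.9% of its stretches, chiefly with Gm9788, and Dppa4 shared 13.98%, chiefly with Gm14058. Neither these genes nor the other members overlap another annotated gene on either strand.

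The promoters of the 3 Zscan4 genes are shown because these genes moved together in the results that follow. RefSeq (GRCm38.p6) gave promoter windows for 5 of the 10 genes. The bases from −220 to −21 relative to the RefSeq transcript start are printed 5′ to 3′ on the strand of the gene, at chr7:11005525-11005724 (plus strand) for Zscan4c, chr7:11166169-11166368 (minus strand) for Zscan4d and chr7:11397695-11397894 (plus strand) for Zscan4f. Capitals mark the letters TATAAAA and TGATTCAAT, which were chosen after the windows had been read and were searched on both strands.
Zscan4c: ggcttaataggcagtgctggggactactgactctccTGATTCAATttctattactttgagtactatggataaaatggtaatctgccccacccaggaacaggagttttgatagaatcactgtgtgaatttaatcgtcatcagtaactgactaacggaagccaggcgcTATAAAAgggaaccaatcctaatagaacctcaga
Zscan4d: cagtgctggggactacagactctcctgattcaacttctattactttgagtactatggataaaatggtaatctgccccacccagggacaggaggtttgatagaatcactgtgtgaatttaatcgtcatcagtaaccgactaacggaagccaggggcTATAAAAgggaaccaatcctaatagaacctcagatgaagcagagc
Zscan4f: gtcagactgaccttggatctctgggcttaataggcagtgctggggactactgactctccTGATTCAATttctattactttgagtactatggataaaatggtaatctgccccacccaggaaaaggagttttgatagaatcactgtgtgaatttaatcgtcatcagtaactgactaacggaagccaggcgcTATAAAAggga
The 3 windows are shifted copies of the same sequence. Identity was 99.6% between Zscan4c and Zscan4f (227 aligned bases), 97.1% between Zscan4c and Zscan4d (239) and 96.8% between Zscan4d and Zscan4f (216). The aligned bases reach beyond the printed ones. TATAAAA stood at −54, −65 and −31 in Zscan4c, Zscan4d and Zscan4f. It occurs in 5.48% of the 32851 full RefSeq windows, which reach beyond the bases printed here. TGATTCAAT stood at −184 in Zscan4c and −161 in Zscan4f, and occurs in 37 of those windows (0.113%). Neither run of letters was found in the windows of Zfp352 and Tdpoz4. A match is a description of the sequence only.

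Between 14094022 and 15358714 reads were counted on genes per library, so counting error is small for Dppa2 and Dppa4 and large for the rarer transcripts. The methods of the study call the replicates of its sequencing experiments biological, without saying what was grown or treated separately, and the p-values below measure only the spread between the 2 libraries of a group. The untreated libraries differed from each other more than those of the other groups did, with a mean chi-square per gene of 5.72 against 2.31 in the auxin group and 2.60 in the wild-type group. Polr2a, the gene of the tagged subunit, had 6623 and 6568 counts in untreated, 10396 and 10663 in auxin-treated and 6866 and 7129 in wild-type cells, and since the degron acts on the protein, this does not measure its loss. Pluripotency markers were abundant in all groups, with 10625 to 13854 counts of Pou5f1 per library. The 9 retina markers summed to between 1.80 and 3.84 CPM, the counts of a gene relative to the scaled total of its library, and Crx and Rcvrn, a photoreceptor transcription factor and calcium sensor, had no count in any library. Prph2, a photoreceptor membrane protein, was the only retina marker that could be tested in wild-type cells. It had 5 and 8 counts in untreated, 14 and 18 in auxin-treated and 21 and 11 in wild-type cells. It was called higher in wild-type cells by 1.30 on the log2 scale (adjusted p = 0.0420, edgeR), but passed the filter on low counts only through the wild-type libraries. The call was lost with DESeq2, with library totals as the only scaling, scaled to the mitochondrial mRNAs and with no filter. With at least 10 counts required in every library it could not be tested. With 1 library left out the log2 fold change ran from 0.75 to 1.69.

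Levels are given as CPM after TMM scaling over the 6 libraries, and levels of different genes are compared per kilobase of exon. In untreated cells Dppa4 stood highest, at 54.3 ± 2.25 CPM per kilobase (SD, n = 2), followed by Dppa2 at 30.8 ± 5.11, and neither overlapped its neighbour in the order. The 8 two-cell-like genes lay far lower, between 2.76 ± 0.770 for Tdpoz4 and 4.74 ± 1.93 for Zscan4d (SD, n = 2), and each of them overlapped the next in the order. After auxin, Usp17le and Zscan4d led the 8 genes, at 5.85 ± 0.706 and 5.70 ± 0.450 CPM per kilobase (SD, n = 2), and overlapped. In wild-type cells Dppa4 and Dppa2 again stood first, at 65.7 ± 0.290 and 31.0 ± 2.23, and the 8 genes ranged from 0.0636 ± 0.000389 for Tdpoz4 to 1.07 ± 0.158 for Usp17le (SD, n = 2).

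**Figure D1:**
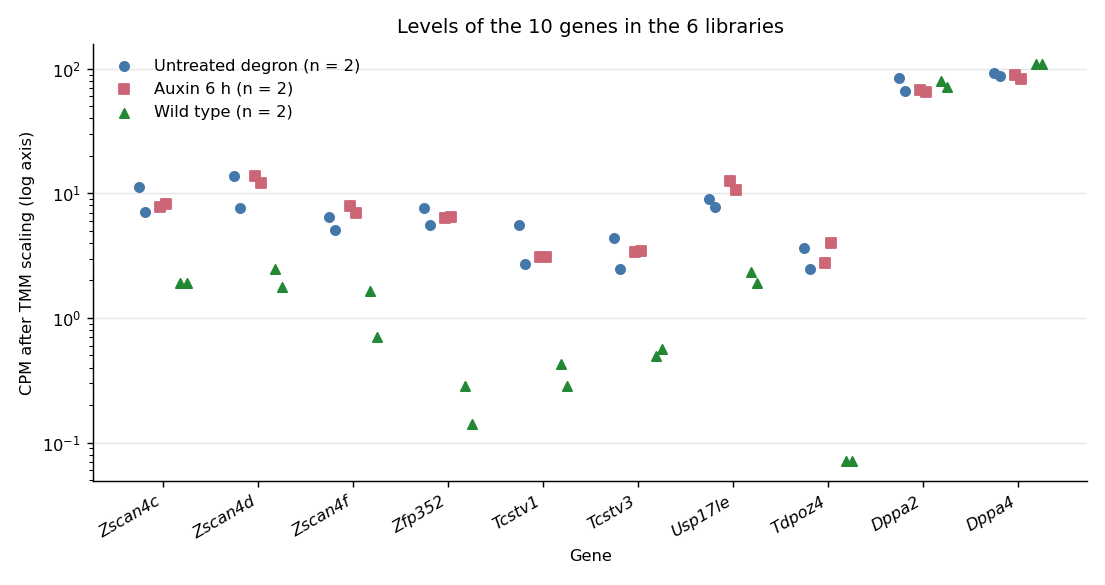
Levels of the 10 genes in each of the 6 libraries, in CPM after TMM scaling on a log axis, with 1 point per library (circles untreated, squares auxin, triangles wild type; n = 2 per group). The wild-type points of the 8 two-cell-like genes lie below all degron points, whereas those of Dppa2 fall among them.

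Zscan4 transcripts were about 5 times as abundant in the untreated degron line as in wild-type mESCs. Zscan4c had 163 and 104 counts in the untreated, 124 and 128 in the auxin-treated and 27 and 27 in the wild-type libraries. Both wild-type libraries lay below all 4 degron libraries. Scaled, this was 9.20 ± 2.96 CPM in untreated and 1.91 ± 0.0117 CPM in wild-type cells (SD, n = 2), a difference of −2.29 on the log2 scale (standard error 0.28, adjusted p = 2.62e-05, edgeR quasi-likelihood test with Benjamini-Hochberg adjustment over all genes). Zscan4d had 200 and 112 counts in untreated, 219 and 191 in auxin-treated and 35 and 25 in wild-type cells. Relative to untreated it stood at −2.36 on the log2 scale in wild type (standard error 0.31, adjusted p = 5.31e-05, the same edgeR test). Zscan4f had 93 and 74 counts in untreated, 127 and 109 in auxin-treated and 23 and 10 in wild-type cells, and differed by −2.32 (standard error 0.33, adjusted p = 0.000103, the same edgeR test). For each of these copies the wild-type libraries did not reach the lowest degron library.

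The sum over the counted copies, which does not depend on how shared reads were split among them, gave the same picture. How reads that fit more than 1 gene were counted is not given in the sources used here. Any reads that were dropped, or given to copies not counted, are missing from the sum. Zscan4b to Zscan4f together had 614 and 387 counts in untreated, 624 and 557 in auxin-treated and 102 and 90 in wild-type cells. This was 34.5 ± 11.4, 37.3 ± 2.33 and 6.80 ± 0.642 CPM (SD, n = 2), and untreated exceeded wild type 5.08-fold. Of the other listed copies, Zscan4b and Zscan4e were in the tables and were both lower in wild-type cells, by log2 fold changes of −2.64 and −2.40 (adjusted p = 0.000183 and 0.000165, edgeR). Zscan4b, with 7 and 7 counts in wild-type cells, passed the filter on low counts only through the degron libraries, so that its direction was fixed by the filter. Zscan4a and the copies annotated Zscan4-ps1, Zscan4-ps2 and Zscan4-ps3 were not analysed here, although Zscan4-ps2 alone carries 67.5% of the stretches of Zscan4f and 51.9% of those of Zscan4c.

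Zfp352 and Tdpoz4 differed most between the lines. Zfp352 had 111 and 82 counts in untreated, 101 and 101 in auxin-treated and 4 and 2 in wild-type cells. The untreated level was 31.3 times the wild-type level (95% counting interval 14.1 to 86.3), and the fitted log2 fold change was −4.94 (standard error 0.41, adjusted p = 1.34e-06, edgeR). Tdpoz4 had 53 and 36 counts in untreated, 44 and 62 in auxin-treated and 1 and 1 in wild-type cells. The untreated level was 43.3 times the wild-type level, with a counting interval from 11.6 to 363 that shows how little 2 counts fix the size of this ratio. Its adjusted p was 1.11e-05 in the edgeR test. Zfp352 and Tdpoz4 passed the filter on low counts only through the degron libraries, so that their direction was fixed by the filter. Gm4858, which carries 11.1% of the stretches of Tdpoz4, had 56 and 37 counts in untreated, 52 and 48 in auxin-treated and 0 and 0 in wild-type cells.

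The Tcstv and Usp17-like genes were lower in wild-type cells as well. Tcstv1 had 80 and 40 counts in untreated, 49 and 48 in auxin-treated and 6 and 4 in wild-type cells. Its fitted difference on the log2 scale was −3.54 (standard error 0.49, adjusted p = 7.49e-05, edgeR), and untreated stood at 11.7 times the wild-type level (95% counting interval 6.13 to 24.96). Tcstv3 had 63 and 36, 54 and 54, and 7 and 8 counts in the same order of groups, with a log2 fold change of −2.69 in wild-type cells (standard error 0.42, adjusted p = 0.000180, edgeR). In both genes the wild-type libraries lay below every degron library. Both passed the filter on low counts only through the degron libraries, so that their direction was fixed by the filter. Usp17le had 129 and 114 counts in untreated, 202 and 166 in auxin-treated and 33 and 27 in wild-type cells. Its level was 8.37 ± 0.810 CPM in untreated and 2.12 ± 0.313 CPM in wild-type cells (SD, n = 2), and its change of −2.003 on the log2 scale (standard error 0.22, adjusted p = 1.44e-05, edgeR) was the smallest in size of the 8 genes.

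All 8 two-cell-like genes were therefore called lower in wild-type cells, each by more than 1 on the log2 scale. Among all 15778 genes tested, 30.7% were called lower and 29.9% higher, and 11.0% were called lower with a fold change past 1, so a call alone sets these genes little apart in this comparison, whereas fold changes of this size are rarer. The median log2 fold change was −2.34 over the 10 genes and −0.01 over all genes tested. Zfp352, Tcstv1, Tcstv3 and Tdpoz4 had fewer than 10 counts in both wild-type libraries and passed the filter on low counts only through the degron libraries. Their direction was therefore fixed by the filter, and their calls are given as a description only. The 8 calls were also made without untreated replicate 1, the library in which all 8 genes stood higher than in its partner, and Zscan4c then differed by −1.92. With at least 10 counts required in every library, 4 of the 8 genes could be tested and all 4 were called lower, beside 30.9% of all genes.

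Other genes of the same families and program were lower in wild-type cells too, in a comparison in which 30.7% of all genes were called lower. Of all genes, 11.0% were called lower by more than 1 on the log2 scale. Usp17la, Usp17lb, Usp17lc and Usp17ld, the other deubiquitinating enzymes of the family that were tested, were all lower, with log2 fold changes of −2.05, −2.38, −3.39 and −3.47 (adjusted p between 3.58e-07 and 0.000163, edgeR). Usp17ld, with 5 and 7 counts in wild-type cells, passed the filter only through the degron libraries, so that its direction was fixed by the filter. Usp17la to Usp17le together stood at 38.7 ± 7.04 CPM in untreated, 43.8 ± 3.69 in auxin-treated and 6.40 ± 0.111 in wild-type cells (SD, n = 2). Tdpoz1 to Tdpoz5 together had 116 and 57, 107 and 96, and 5 and 7 counts in these groups. Of 39 genes counted under the symbols of a list of the wider program, 24 passed the filter. Of these, 12 had fewer than 10 counts in both wild-type libraries and passed only through the degron libraries, where they are high, so that their direction was fixed by the filter. With at least 10 counts required in every library, 8 genes could be tested, and all 8 were called lower, 7 of them by more than 1. With that filter 30.9% of all genes were called lower. With the usual filter the 24 genes were all called lower, which is given as a description only, and 4 of the 39 had no count at all. The smallest adjusted p-values in this list belonged to Gm8994 (532 and 379 counts in untreated, 536 and 469 in auxin-treated, 39 and 37 in wild-type cells), Gm5662, Gm8300, Gm20767, Gm2022 and Sp110, with log2 fold changes from −4.09 to −3.19 (adjusted p between 8.89e-08 and 7.08e-06, edgeR). Gm2022 (5 and 8 counts in wild-type cells) and Sp110 (4 and 8) are among the 12 genes whose direction was fixed by the filter. Ddit4l, named after its values were seen as the gene of this list that changed least, differed by −0.46 on the log2 scale (adjusted p = 0.0154, edgeR). With 1 library left out, an alternative chosen after the data had been seen, 22 or 23 of the 24 were called lower. Dux itself was not analysed here.

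**Figure D2:**
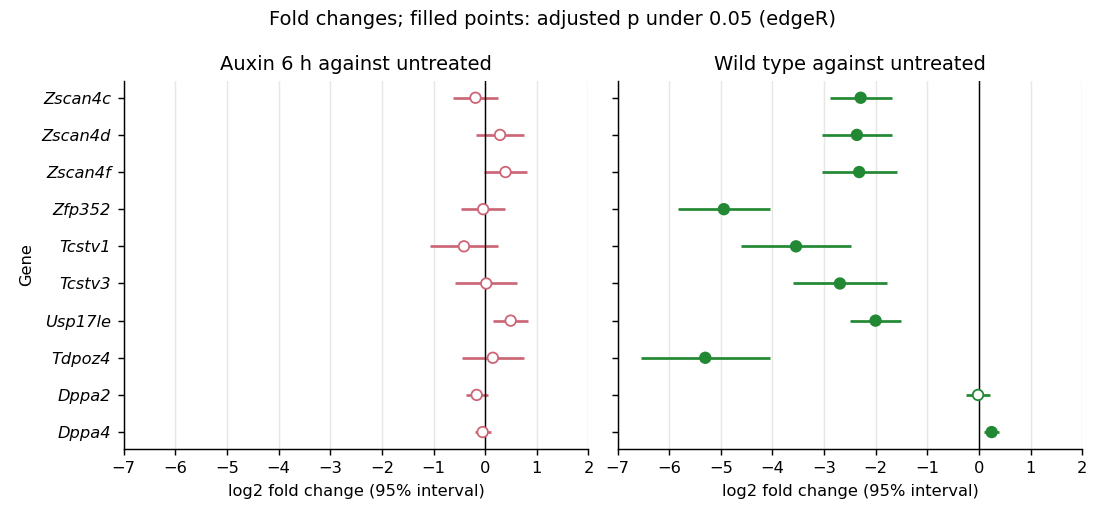
Log2 fold changes of the 10 genes with 95% intervals after 6 h of auxin (left) and in wild-type cells (right), each against the 2 untreated libraries, with filled points where the adjusted p was under 0.05 in edgeR. On the left no point is filled and only the interval of Usp17le leaves out 0. On the right the 8 two-cell-like genes lie between −5.30 and −2.003, and Dppa2 lies at −0.02.

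Dppa2 and Dppa4 did not follow this pattern. Dppa2 had 1214 and 972 counts in untreated, 1083 and 1015 in auxin-treated and 1122 and 1022 in wild-type cells. Levels were 75.3 ± 12.5, 66.3 ± 1.86 and 75.9 ± 5.47 CPM in these groups (SD, n = 2). The untreated libraries overlapped those of both other groups, whereas both auxin libraries lay below both wild-type ones. The log2 fold change in wild-type cells was −0.02 (95% interval −0.24 to 0.21, adjusted p = 0.892, edgeR). It was −0.18 and called lower without untreated replicate 2 (adjusted p = 0.0401, edgeR), and 0.17 without untreated replicate 1 (adjusted p = 0.0611, edgeR), so its sign changed with the untreated library used. Dppa4 had 1341 and 1282 counts in untreated, 1424 and 1302 in auxin-treated and 1532 and 1555 in wild-type cells. Both wild-type libraries, at 109.2 ± 0.482 CPM, lay above both untreated ones, at 90.3 ± 3.74 CPM (SD, n = 2). The fitted difference of 0.25 on the log2 scale (standard error 0.07, adjusted p = 0.00702, edgeR) was called, in a comparison in which 29.9% of genes were called higher. Without wild-type replicate 2 it was 0.24 and no longer called (adjusted p = 0.0620, edgeR), and scaled to the mitochondrial mRNAs it was −1.86, on a scale on which the median of all genes was −2.10.

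Transcripts known to depend on Dppa2 or Dppa4 in mESCs were listed as Nkx2-5, Syce1 and Mael. In wild-type cells 2 of the 3 were called lower, beside 30.7% of all genes tested. Nkx2-5, a homeobox factor of heart development, had 60 and 50 counts in untreated, 63 and 64 in auxin-treated and 17 and 26 in wild-type cells and differed by −1.34 on the log2 scale in wild type (standard error 0.30, adjusted p = 0.00219, edgeR). Syce1, a protein of the meiotic synaptonemal complex, had 236 and 177, 256 and 216, and 100 and 119 counts in these groups, and differed in wild type by −0.91 (standard error 0.18, adjusted p = 0.00105, edgeR). Mael, a piRNA pathway protein of germ cells, had 318 and 332, 358 and 342, and 336 and 313 counts, and its log2 fold change was 0.01 (adjusted p = 0.944, edgeR). None of the 3 genes was called after auxin, where their adjusted p lay between 0.808 and 0.990 in edgeR.

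After 6 h of auxin, none of the 10 genes was called, in a comparison in which 4.20% of the 16128 genes tested were called in either direction, 2.56% higher and 1.64% lower. At an unadjusted p under 0.05, edgeR gave 1 of the 10 genes and 3245 of all genes, and DESeq2 called 0 of the 10 and 290 of all genes at an adjusted p under 0.05. The gene was Usp17le, at 8.37 ± 0.810 CPM in untreated and 11.6 ± 1.40 CPM in auxin-treated cells (SD, n = 2), with no overlap of the groups. Its fitted difference of 0.49 on the log2 scale (95% interval 0.15 to 0.83) had an unadjusted p of 0.00778 and an adjusted p of 0.0975 in edgeR. Zscan4f, at 5.75 ± 0.980 and 7.46 ± 0.672 CPM (SD, n = 2), also showed no overlap, with a log2 fold change of 0.39 (95% interval −0.02 to 0.80, adjusted p = 0.272, edgeR). The other 8 genes overlapped between the groups. The share of all genes without overlap was not determined, so that overlap is given as a description only. Dppa2 differed by −0.16 (95% interval −0.37 to 0.05, adjusted p = 0.379, edgeR) and Dppa4 by −0.05 (95% interval −0.20 to 0.11, adjusted p = 0.769, edgeR). The widest interval was that of Tcstv1, from −1.06 to 0.24, so that a fall of about 2-fold in this gene cannot be told from no change with these 4 libraries. Since TMM scaling holds the typical gene constant, a change common to all mRNAs would not be seen.

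The auxin values rest on which untreated library is used. Without untreated replicate 1, Zscan4d differed by 0.78 (adjusted p = 0.000351, edgeR) and Usp17le by 0.60 (adjusted p = 0.0105, edgeR), and both were called higher, in a fit in which 9.13% of all genes were called higher. Without untreated replicate 2, Tcstv1 differed by −0.83 (adjusted p = 0.0281, edgeR) and Dppa2 by −0.33 (adjusted p = 0.00193, edgeR), and both were called lower, beside 3.03% of all genes. In each of these fits 1 library stands for its group and is assumed to vary like the others. In the wider list of the program, 0 of 26 genes tested were called, with a median log2 fold change of 0.07 beside 0.00 over all genes, and without untreated replicate 1 there were 6 called higher, beside the same 9.13%. None of the 7 tested copies of the Usp17l and Tdpoz families and neither of the 2 Zscan4 copies was called, and without untreated replicate 1, 2 of the 7 were called higher.

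Within the untreated group the 8 two-cell-like genes stood higher in replicate 1 than in replicate 2 without exception, by 0.20 to 1.01 on the log2 scale and by 0.62 in the median. Of 35 further genes of the program and its families, 34 were higher in replicate 1 (median 0.67), compared with 49.7% of all 16386 genes tested (median 0.00). Dppa2 and Dppa4 were higher in replicate 1 by 0.34 and 0.08. In the auxin group 3 of the 8 genes and 28 of the 35 further genes (median 0.25) were higher in replicate 1, beside 48.9% of all genes. In the wild-type group these counts were 7 of 8, on between 1 and 35 counts per gene and library, and 16 of 35. What set the untreated libraries apart was not tested.

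**Figure D3:**
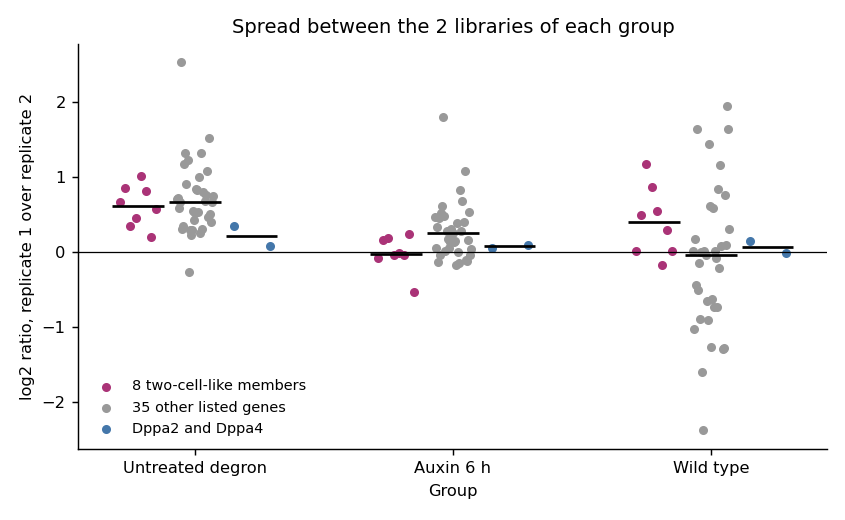
Log2 ratio of replicate 1 over replicate 2 in each group, with 1 point per gene for the 8 two-cell-like genes, the 35 other listed genes of the program and its families, and Dppa2 and Dppa4, and a line at each median. In the untreated group the 8 genes lie between 0.20 and 1.01, and in the auxin group they lie on both sides of 0.

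Of the genes that are no members, those with levels most like the summed Zscan4c, Zscan4d and Zscan4f over the 6 libraries were Gm2016, Srgap1 and Ptpn21, with Pearson's r of 1.00, 0.999 and 0.999 of log2 CPM among 12416 genes whose counts averaged 50 or more. Gm2016, itself a gene of the two-cell-like list, had 234 and 134 counts in untreated, 247 and 217 in auxin-treated and 27 and 18 in wild-type cells. For Dppa2 they were Rnf19a (0.989), Wwc2 (0.984) and Gid8 (0.975), and for Dppa4 Gm13225 (0.999), Hykk (0.999) and Fam133b (0.998). Rnf19a, a ubiquitin ligase, had 662 and 571, 640 and 600, and 613 and 595 counts in the 3 groups. These values rest on 6 libraries in which the wild-type pair stands apart, were picked as the highest of many, and are given as a description with no test.

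Factors known to restrain the two-cell-like state were mostly higher in wild-type cells. Of 29 genes tested under 28 symbols, 21 were higher, 3 lower and 5 not called, in a comparison in which 29.9% of all genes were higher and 30.7% lower, with a median log2 fold change of 0.42 beside −0.01 over all genes. Cbx3, a heterochromatin protein, had 1217 and 1216 counts in untreated and 3599 and 3191 in wild-type cells, a log2 fold change of 1.49 (adjusted p = 2.91e-08, edgeR). Atf7ip, the partner of the histone H3 lysine methyltransferase Setdb1, appears under 2 gene identifiers that were higher by 0.98 and 1.53. The DNA methylation cofactor Uhrf1 was higher by 0.85, the heterochromatin protein Cbx1 by 0.71 and the X inactivation factor Smchd1 by 0.71 (adjusted p at most 2.22e-06 for these 5 entries, edgeR). E2f6, Max and the pluripotency gene Zfp42, of which E2f6 and Max are subunits of a noncanonical Polycomb complex, were lower by −0.35, −0.19 and −0.18 (adjusted p between 0.00656 and 0.0313, edgeR). Without wild-type replicate 1, 18 were higher and 1 lower, and without wild-type replicate 2, 17 and 1. Scaled to the mitochondrial mRNAs, all 29 were called lower, with a median of −1.67 against −2.10 over all genes. After auxin, Zfp42 fell by 0.65 on the log2 scale and Chaf1a, a subunit of the chromatin assembly factor, by 0.30 (adjusted p = 0.000326 and 0.0367, edgeR), and the other 27 were not called, in a comparison in which 1.64% of all genes were called lower. The 2 calls became 1 with either auxin replicate left out, with DESeq2, with no filter and scaled to the mitochondrial mRNAs, and 11 without untreated replicate 1, where 7.83% of all genes were called lower.

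Among 5 tested factors known to promote the state, Gata2 and Nelfa were lower in wild-type cells and Top2a was higher. In this comparison 30.7% of all genes were called lower and 29.9% higher. Gata2, a zinc finger transcription factor, had 333 and 572 counts in untreated and 89 and 88 in wild-type cells, a log2 fold change of −2.34 (adjusted p = 4.64e-06, edgeR). Its untreated libraries stood in the opposite order to those of the two-cell-like genes. Nelfa, a subunit of the negative elongation factor, was lower by −0.45 (adjusted p = 0.000241, edgeR) and Top2a, a DNA topoisomerase, higher by 1.12 (adjusted p = 8.61e-08, edgeR). Dppa3 (Stella), a factor that protects the methylation of maternal DNA, had 308 and 327 counts in untreated and 271 and 226 after auxin. It was called lower, with a log2 fold change of −0.46 (adjusted p = 0.0442, edgeR), beside 1.64% of all genes. None of the 5 factors was called after auxin with DESeq2, with library totals as the only scaling or scaled to the mitochondrial mRNAs. The same held with no filter, with at least 10 counts required in every library and with either auxin replicate left out. With DESeq2 size factors, robust dispersion or a joint fit of the 3 groups 1 factor was called lower, and with the replicate block 2. Trp53 was called in neither comparison, with adjusted p of 0.696 after auxin and 0.949 in wild-type cells in edgeR.

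**Figure D4:**
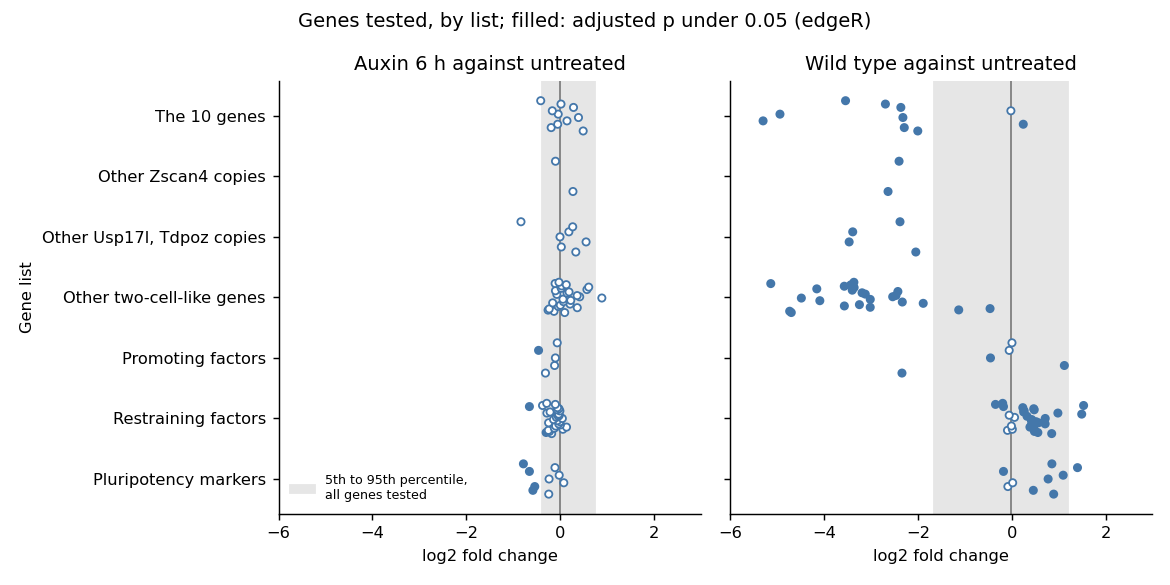
Log2 fold changes of the tested genes of each list after auxin (left) and in wild-type cells (right), 1 point per gene, filled where the adjusted p was under 0.05 in edgeR. The grey band spans the 5th to the 95th percentile of all genes tested and the line their median. On the right the 24 genes of the wider program lie between −5.14 and −0.46 and the restraining factors between −0.35 and 1.53.

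Other features of the libraries moved with the wild-type comparison. The 13 mitochondrial mRNAs were all called higher in wild-type cells, beside 29.9% of all genes. They summed to between 3335 and 4278 CPM in the 4 degron libraries and to 16070 and 15730 CPM in the wild-type libraries. Of 9 feeder fibroblast markers, 6 were tested in wild-type cells, where 3 were lower and 1 was higher, beside 30.7% and 29.9% of all genes. After auxin 1 of 7 tested was higher, beside 2.56% of all genes. The 9 markers summed to 153 to 155 CPM in untreated, 175 to 203 in auxin-treated and 125 to 131 in wild-type cells. The collagen genes Col1a1 and Col1a2 made up most of this sum. Col1a1 had 941 and 938 counts in untreated, 1166 and 1380 in auxin-treated and 962 and 915 in wild-type cells and was called in neither comparison. Col1a2 had 993 and 951, 1275 and 1413, and 567 and 652 counts in these groups, and was higher after auxin by 0.36 (adjusted p = 0.0224, edgeR, a call lost without auxin replicate 2) and lower in wild-type cells by −0.66 (adjusted p = 2.85e-05, edgeR). At the other end, Lum and Dcn had at most 4 counts in any library. Of 9 pluripotency markers, 6 were higher and 1 lower in wild-type cells, beside the 29.9% and 30.7% of all genes given above, with Utf1 higher by 1.10, Dppa5a by 1.40 and Nanog by 0.46 (adjusted p at most 3.74e-05, edgeR). After auxin, 4 of the 9 were lower beside 1.64% of all genes (7 beside 7.83% without untreated replicate 1), among them Sox2 by −0.78 and Nanog by −0.58 (adjusted p at most 0.000920, edgeR). The part of these differences in the values of the two-cell-like genes was not tested. The tag, the Tir1 transgene, the derivation from 1 clone and the separate deposition of the wild-type counts all go with the same groups, and cannot be told apart. Whether doxycycline goes with them too is not known, since the wild-type records do not state it.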

How the data were processed

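The authors aligned paired reads of polyA RNA to mm10 with HISAT2 2.1.0 and counted them per GENCODE gene with Salmon and HTSeq. The annotation release and the strand setting are not given in the sources used here. They deposited whole-number counts, not normalized, in 1 table for the degron and 1 for the wild-type libraries, and the tables were joined by gene identifier, since 27 symbols differed between them. The degron table also holds the authors' own comparison, whose values were not used, and 2 columns of per-sample values that match no sample were left out. Of the 39017 identifiers, 37607 are in GENCODE vM21, which gave positions and lengths.

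Genes kept by filterByExpr (minimum count 10) went into the quasi-likelihood test of edgeR 4.0.16 under R 4.3.3 (glmQLFit and glmQLFTest, TMM scaling, prior count 0.125, Benjamini-Hochberg adjustment over all genes tested), with 4 libraries per comparison. Called means an adjusted p under 0.05. Standard errors were taken as the fold change over the square root of F. Both comparisons share the untreated libraries. Counting intervals are exact 95% intervals, and they cover counting error only. All 10 genes are named, with listed genes that were called (at most the 6 with the smallest adjusted p per list and direction) and the 3 genes most alike in pattern. Members and lists were chosen with earlier results of these data known. Alternatives were DESeq2 1.42.0, other scalings and filters, robust dispersion, a joint fit of the 3 groups, a replicate block and each library left out.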

Additional observations from a re-analysis of the deposited data

How the results depend on the processing

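Zscan4c, Zscan4d, Zscan4f and Usp17le were lower in wild-type cells, past the threshold, under every alternative. The other 4 two-cell-like genes were so under every alternative that could test them. Any filter that kept these 4 did so only through the degron libraries, which fixed their direction. With at least 10 counts in every library the count of members called lower was 4, because Zfp352, Tcstv1, Tcstv3 and Tdpoz4 could not be fitted. Scaled to the mitochondrial mRNAs, which set the median of all genes at −2.10, 73 genes were called higher and 15235 lower in wild-type cells, Dppa4 was at −1.86 and 0 members were called higher. Leaving out 1 library, the count of members called higher in wild-type cells lay between 0 and 1, and the log2 fold change of Dppa2 between −0.18 and 0.17.

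After auxin, 413 genes were called higher and 264 lower, against 167 and 52 scaled to the mitochondrial mRNAs, 43 and 12 with no filter, 176 and 114 with DESeq2, 246 higher with at least 10 counts in every library and 668 lower with all 3 groups in one fit. Leaving out 1 library gave 170 to 1473 higher and 40 to 1263 lower, with both maxima without untreated replicate 1, and 0 to 2 members called in each direction. The log2 fold changes over these fits ran from −0.49 to 0.19 for Zscan4c, −0.078 to 0.78 for Zscan4d, −0.25 to 0.21 for Zfp352, −0.83 to 0.19 for Tcstv1, −0.34 to 0.49 for Tcstv3, −0.14 to 0.47 for Tdpoz4 and −0.33 to 0.019 for Dppa2. Tdpoz4 was at −0.037 and Tcstv3 at −0.16 scaled to the mitochondrial mRNAs, where the median of all genes was −0.17, and Tcstv3 at −0.001 with no filter. The cause of these shifts was not tested. With library totals as the only scaling, the sum of Tcstv1 and Tcstv3 after auxin was 6.72 CPM in place of 6.48 and that of Usp17la to Usp17le in wild-type cells 6.10 CPM in place of 6.40.

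With the replicate number as a block, 1081 genes were called higher and 849 lower after auxin, and 1 member, Usp17le, was called higher (0.49, adjusted p = 0.0224, edgeR). Libraries of the same number deviated from their group means with correlations across genes of 0.10 (untreated with auxin), −0.04 (untreated with wild type) and −0.01 (auxin with wild type). Whether libraries of the same number were prepared together was not tested. The block changed no other call of a member.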

Other observations

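Some genes that share stretches with the members could be read beside them. Gm9788, which carries 22.9% of the stretches of Dppa2, had 115 and 70 counts in untreated, 112 and 112 in auxin-treated and 82 and 76 in wild-type cells. Gm14058, which carries 13.1% of those of Dppa4, had 48 and 49, 66 and 50, and 50 and 56 counts in these groups. Gm21818, which shares stretches with Tcstv1 and Tcstv3, had 91 and 69, 105 and 85, and 8 and 6 counts, and Zfp353-ps, which shares 0.64% of the stretches of Zfp352, had 17 and 10, 17 and 22, and 0 and 2. Morc1, the gene downstream of Dppa2 that encodes a protein for transposon silencing in germ cells, had 687 and 826 counts in untreated, 680 and 724 in auxin-treated and 737 and 732 in wild-type cells, with log2 fold changes of −0.21 and −0.03 (adjusted p = 0.228 and 0.772, edgeR). Dppa1 had no count in any library. These genes that share stretches, and the neighbours, were named after their values were seen, and no explanation is offered.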
